A study of Homo sapiens with 16 samples.

Results

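Mitosis genes, the cyclins, kinases, checkpoint proteins, motors and chromosome proteins that carry a cell through division, were followed here in a human B cell line at 2 levels of MYC, with and without an inhibitor of N-myristoyltransferases. The members are 50 genes taken from a list of textbook mitosis genes and found by their symbol among the 58051 gene identifiers of the deposited table; all 50 were found and all 50 passed the filter on low values. They were divided by role into 9 cyclins and entry kinases, 11 checkpoint and kinetochore genes, 6 kinesin motors, 9 spindle and cytokinesis genes, 3 chromosomal passenger genes, 6 condensin and chromosome structure genes, 5 genes of the anaphase-promoting complex pathway, and the transcription factor FOXM1. CDC25C, a phosphatase that acts on CDK1, is counted with the cyclins and entry kinases. The cells were P493-6, an established Epstein-Barr virus-immortalised B cell line with a MYC transgene that doxycycline represses and a viral EBNA2 protein that needs estrogen. Cells of the high MYC groups were grown in DMEM with serum and no additive. In the medium MYC groups the medium held 0.1 µg/mL doxycycline together with 1 µM β-estradiol from 24 h before treatment. Each level was then split between 100 nM IMP1088, which inhibits both human N-myristoyltransferases, and the DMSO vehicle, which the titles give as 24 h. Each of the 4 groups had 4 libraries, all from this 1 cell line. The additives set the MYC level, so effects of MYC, of doxycycline and of estradiol with EBNA2 cannot be told apart. The labels do not say whether replicates were separate cultures, so p-values measure only the spread between these samples.

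Entry into mitosis is driven by CDK1 bound to cyclin B, which Polo-like and Aurora kinases help to activate and to place. Kinetochores then attach chromosomes to spindle microtubules, and the spindle checkpoint holds the anaphase-promoting complex, a ubiquitin ligase, in check until every chromosome is attached. Most genes of this programme are transcribed in late S phase and G2, from promoters that carry CCAAT boxes and a cell cycle homology region and that are bound by the MuvB complex with B-MYB or FOXM1. In dividing B cells their mRNA therefore tracks the share of cells in G2 and mitosis as well as the level in each such cell. Bulk RNA cannot tell apart fewer cells in these phases and less of the mRNA per cell.

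Library depth lay between 8755296 and 13858534 reads, counting only those assigned to genes. Normalized counts of MYC, which the groups are named for, averaged 31649 ± 2129.7 at high and 959 ± 48.7 at medium MYC in DMSO, and 47542 ± 505 and 1382 ± 51.2 in IMP1088 (± SD, n = 4 each). All 8 B cell markers examined had means of at least 10 in every group, with a summed count from 34601 to 66798. Markers of other cell types were low: the summed count of 5 T cell genes lay between 43.1 and 95.4, and NCAM1 was at 0 in every library. The summed count of 3 natural killer cell genes was 2.25 to 4.41 in high MYC controls, 0 to 1.04 with the inhibitor, 18.8 to 26.5 in medium MYC controls and 11.5 to 22.8 with the inhibitor. The summed count of 4 myeloid genes was 118 to 136 in high MYC controls, 108 to 119 with the inhibitor, 263 to 291 in medium MYC controls and 247 to 276 with the inhibitor. That of 3 plasma cell genes was 427 to 495 and 466 to 514 at high MYC and 283 to 321 and 353 to 411 at medium MYC, in controls and with the inhibitor, and that of 3 epithelial genes was 56.5 to 70.8, 65.6 to 86.3, 60.5 to 78.8 and 84.6 to 112 in the same order. Within the epithelial sum CDH1 and EPCAM changed in opposite directions between MYC levels: CDH1 had at most 1.08 in any high MYC library and averaged 55.4 ± 8.04 in medium MYC controls, while EPCAM averaged 62.1 ± 7.04 in high and 13.1 ± 5.56 in medium MYC controls. The part of these levels in the results below was not tested.

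RefSeq promoter windows (GRCh38.p14), each with 250 bases before and 50 after an annotated transcript start, were found for 43 of the 50 genes, 52 windows in all, some of them overlapping windows of 1 gene. These are shown because many of them hold 2 short sequences that the choice of the list did not use. Whether these sequences bear on the changes described below was not tested. The core of the cell cycle homology region, TTTGAA or TTCGAA on either strand, was present in 36 of 52 windows (69.2%), against 16.4% of all 35116 windows of the same length. CCAAT, on either strand, was present in 37 windows (71.2%), against 34.6% of all. Both were present in 28 windows (53.8%), against 6.38% of all. A core lying wholly in the 50 bases before the start was found in 15 windows (28.8%), against 2.43% of all. The E2F sequences TTTCGCGC and TTTGGCGC were rarer, in 3 windows (5.77%), against 1.15% of all. Printed here, with cores and CCAAT boxes in capitals, are windows of the 4 genes that fell most with the inhibitor at high MYC among the 13 with 1 window and a core that close to the start, and of KIF11; they were chosen after the values were seen. For ESPL1 (chr12:53268199-53268298, plus strand) and KIF11 (chr10:92593030-92593129, plus strand) the 100 bases before the RefSeq start are given. For ANLN (chr7:36389828-36389857, plus strand), PLK1 (chr16:23678846-23678875, plus strand) and INCENP (chr11:62123981-62124010, plus strand), whose GENCODE release 29 gene models begin further upstream, 30 bases around the core are given.
ESPL1: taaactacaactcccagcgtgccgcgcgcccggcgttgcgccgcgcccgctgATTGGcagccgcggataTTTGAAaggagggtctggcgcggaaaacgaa
KIF11: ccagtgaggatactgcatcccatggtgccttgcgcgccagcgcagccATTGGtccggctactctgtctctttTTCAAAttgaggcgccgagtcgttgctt
ANLN: cgctgaaaTTCAAATTTGAAcggctgcaga
PLK1: ttcccagcgccgcgTTTGAAttcggggagg
INCENP: ggATTGGctgagccttcagtTTTGAAaatc
Counted with the start as base 0, the core began at -31 in ESPL1, -28 in KIF11, -29 in PLK1 and -10 in INCENP, and the pair of abutting cores in ANLN, one on each strand, began at -26 and -20. A CCAAT box, read as ATTGG on this strand, preceded the core at -48 in ESPL1, -53 in KIF11 and -28 in INCENP. In PLK1 the letters CCAAT began at -73, outside the bases printed, and the ANLN window held no CCAAT match on either strand. Over the 52 windows there were 49 core matches, of which 26 (53.1%) began in the 100 bases before the start, and 83 CCAAT matches, of which 50 (60.2%) did. The 33 genes with a core had a median log2 change of -0.16 with the inhibitor at high MYC (range -0.50 to 0.16) and the 10 without one had -0.25 (range -0.32 to 0.0054). These are descriptions of 2 overlapping ranges with no test. A match of letters is a description of the window, not a site shown to be bound.

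**Figure D1:**
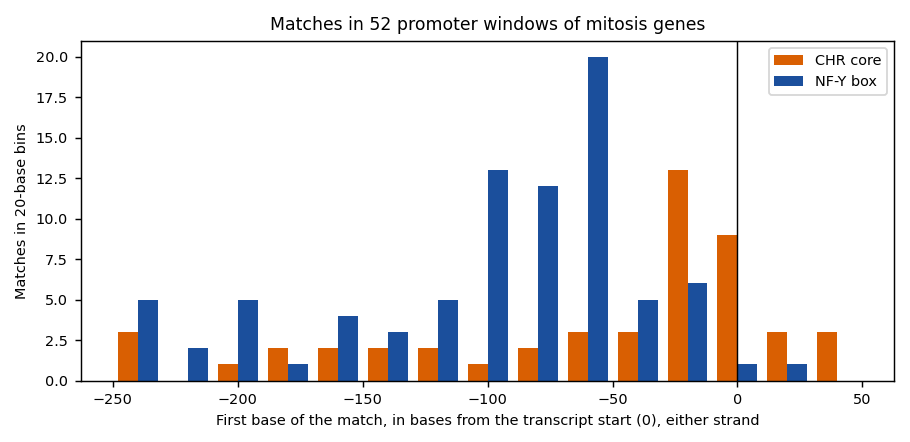
Positions of 2 short sequences in the 52 RefSeq promoter windows of 43 mitosis genes. The x axis is the first base of each match relative to the transcript start (0), the y axis is the number of matches in 20-base bins; orange bars are the core of the cell cycle homology region and blue bars are CCAAT boxes, both strands. In the 100 bases before the start lie 26 of 49 core matches and 50 of 83 CCAAT matches, with the CCAAT boxes further from the start than the cores.

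Between MYC levels, most mitosis genes had more mRNA at medium than at high MYC. Among controls, 44 of 50 were higher and 3 were lower at medium MYC, where 38.9% of all 13765 genes tested were higher and 37.3% were lower (limma, Benjamini-Hochberg adjusted p under 0.05). The median log2 difference of the 50 was 0.44, against 0.02 over all genes tested. With the inhibitor, 46 were higher and 3 were lower, against 39.7% and 37.8% of all genes, with a median of 0.61. In response to the inhibitor the direction was down, mainly at high MYC. There 34 of 50 members fell and none rose, against 16.3% and 10.5% of all genes tested, with a median log2 change of -0.19 (all genes -0.02). At an unadjusted p under 0.05, 39 were lower and 1 was higher at high MYC, and edgeR and DESeq2 on the recovered reads called 33 and 32 lower and none higher. At medium MYC 7 fell and 1 rose, against 14.6% and 11.7% of all genes, with a median of -0.0044, so the share called there did not exceed the background in either direction. Under quantile normalization the medium MYC split was 6 lower and 5 higher, and with equal library totals it was 6 and 3.

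The libraries kept to their groups. The median over the 50 members of log2(normalized count + 1) minus each gene's mean was between -0.20 and -0.14 in the 4 high MYC controls and between -0.39 and -0.30 in the 4 high MYC libraries with inhibitor. It was between 0.25 and 0.31 in medium MYC controls and between 0.23 and 0.28 with the inhibitor. The first 2 ranges did not overlap, both lay below the other two, and those at medium MYC overlapped each other. As a share of all reads assigned to genes the 50 genes took 0.582% to 0.622% in high MYC controls and 0.543% to 0.562% with the inhibitor. At medium MYC their share was 0.753% to 0.800% in controls and 0.771% to 0.812% with the inhibitor.

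**Figure D2:**
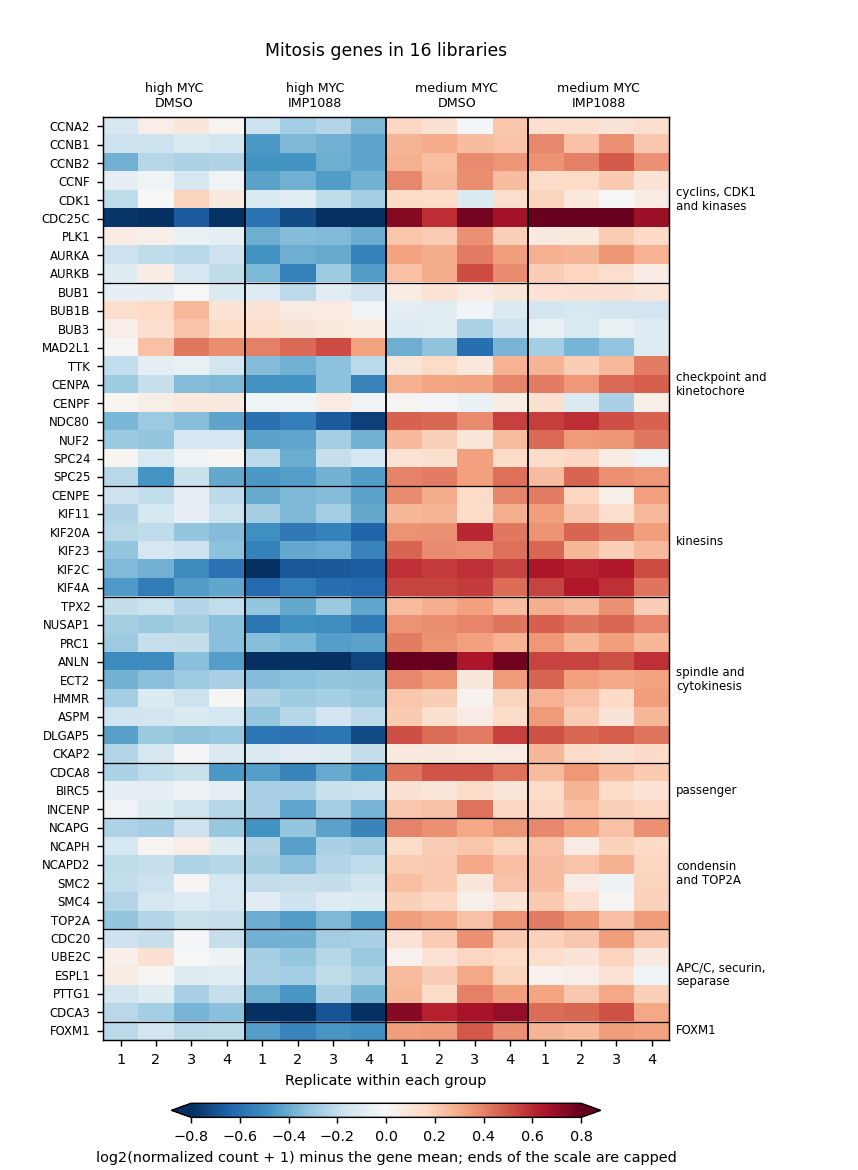
Levels of the 50 mitosis genes (rows, by role) in the 16 libraries (columns, by group and replicate). Colour is log2(normalized count + 1) minus the mean of the gene over all libraries, red above and blue below it, with the ends of the scale capped. Most rows are palest blue or white in high MYC controls, darker blue in high MYC libraries with inhibitor and red at medium MYC; MAD2L1, BUB3 and BUB1B run the other way between MYC levels.

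The transcription factor FOXM1 (chromosome 12, 2857681 to 2877155 on GRCh38), which activates many genes of this programme in G2, moved as most of them did. Its normalized counts were 1176, 1227, 1178 and 1185 in high MYC controls and 1007, 946, 987 and 972 with the inhibitor. At medium MYC FOXM1 read 1722, 1729, 1922 and 1758 in controls and 1649.7, 1631, 1724 and 1710.1 with the inhibitor. Every high MYC library with inhibitor lay below every high MYC control, and all medium MYC libraries lay above both. FOXM1 fell by 17.9% with the inhibitor at high MYC (log2 change -0.28, SE 0.037, adjusted p = 4.45e-06), while at medium MYC the log2 change of -0.09 did not pass (adjusted p = 0.0934). The difference between these responses was -0.20 (SE 0.052, adjusted p = 0.0167). Among controls FOXM1 was 49.5% higher at medium MYC (adjusted p = 3.43e-12).

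Of the 9 cyclins, CDK1 and entry kinases, 8 were higher at medium MYC among controls (median log2 difference 0.41), and 7 fell with the inhibitor at high MYC (median -0.26). CCNB1, cyclin B1 (chromosome 5, 69167010 to 69178245), read 1375, 1378, 1435 and 1399 in high MYC controls and 1130.2, 1208, 1187 and 1160.1 with the inhibitor. At medium MYC CCNB1 read 1874, 1907, 1839 and 1818 in controls and 2024, 1823, 1997 and 1802 with the inhibitor. At high MYC the inhibitor and control libraries did not overlap, whereas at medium MYC they did. CCNB1 fell by 16.2% at high MYC (log2 change -0.25, SE 0.038, adjusted p = 2.81e-05), and the difference between the responses was -0.29 (SE 0.053, adjusted p = 0.000924). CCNF, an F-box protein that targets substrates for ubiquitination (chromosome 16, 2429394 to 2458854), had counts of 837, 867, 809 and 865 in high MYC controls and 657, 677, 648 and 681 with the inhibitor. At medium MYC CCNF stood at 1156, 1059.9, 1146 and 1049.6 in controls and 984, 985, 1024 and 953 with the inhibitor. It was lower with the inhibitor at both levels without overlap. CCNF fell by 21.1% at high MYC (log2 change -0.34, SE 0.04, adjusted p = 1.35e-06) and fell by 10.5% at medium MYC (log2 change -0.16, adjusted p = 0.00472). The difference of -0.18 between them (adjusted p = 0.0493) was past the threshold in these settings but not in 18 of the alternatives. CCNA2, cyclin A2, and CCNB2, cyclin B2, fell at high MYC (log2 change -0.27 and -0.16) and did not pass at medium MYC (-0.0018 and 0.09).

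PLK1, the Polo-like kinase (chromosome 16, 23677656 to 23690367), had counts of 1570.3, 1554, 1452 and 1426 in high MYC controls and 1145, 1184, 1179 and 1143 with the inhibitor. At medium MYC PLK1 read 1757, 1735, 1940.2 and 1716 in controls and 1583, 1598, 1731 and 1681 with the inhibitor. The high MYC libraries with inhibitor were the 4 lowest of all 16, and the medium MYC groups overlapped. PLK1 fell by 22.4% at high MYC (log2 change -0.37, SE 0.042, adjusted p = 1.07e-06) and fell by 7.7% at medium MYC (adjusted p = 0.0484), the latter a call that 22 of 30 alternatives did not make, and the responses differed by -0.25 (SE 0.06, adjusted p = 0.00891). AURKA, the Aurora kinase of spindle poles (chromosome 20, 56369389 to 56392337), read 829, 809, 798 and 829 in high MYC controls and 669, 709.9, 704 and 640.3 with the inhibitor. At medium MYC AURKA read 1162, 1145, 1240.1 and 1175 in controls and 1132, 1124, 1189 and 1128 with the inhibitor. Treated and control libraries were apart at high MYC and overlapped at medium MYC. AURKA fell by 16.6% at high MYC (log2 change -0.26, SE 0.039, adjusted p = 2.78e-05), with a difference between responses of -0.22 (adjusted p = 0.0141). AURKB, the Aurora kinase of the chromosomal passenger complex (chromosome 17, 8204733 to 8210600), had counts of 638, 709, 621 and 591 in high MYC controls and 530.2, 468, 556 and 499 with the inhibitor. At medium MYC AURKB had 802, 838, 978 and 886 in controls and 785, 768, 751 and 711 with the inhibitor. It was lower with the inhibitor without overlap at both levels, and fell by 19.7% at high MYC (log2 change -0.32, adjusted p = 0.000777) and fell by 13.8% at medium MYC (log2 change -0.21, adjusted p = 0.0163). The difference between these 2 responses was -0.10 (95% interval -0.29 to 0.09, adjusted p = 0.57).

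CDK1 and CDC25C did not pass the test for the inhibitor at either level. CDK1, the kinase that cyclin B activates (chromosome 10, 60778331 to 60794852), read 905, 1041, 1175 and 1095 in high MYC controls and 957, 977, 902 and 859 with the inhibitor. At medium MYC CDK1 read 1159.9, 1154, 961 and 1147 in controls and 1176, 1103, 1038 and 1087 with the inhibitor. These ranges overlapped in both pairs, and among controls between MYC levels. The log2 change at high MYC was -0.19 (95% interval -0.33 to -0.04, adjusted p = 0.0521), just short of the threshold, and 8 of the alternatives called it. Among these were 2 that corrected for GC content, which were added after the data were seen. Those 2 also called CDK1 for the inhibitor at medium MYC, between MYC levels among controls and for the difference in response. CDC25C, the phosphatase that removes inhibitory phosphates from CDK1 (chromosome 5, 138285265 to 138338355), had the largest difference between MYC levels of the 50. Its counts were 75.3, 74.1, 81.7 and 74.9 in high MYC controls, 86.0, 78.8, 72.4 and 64.4 with the inhibitor, 217, 196, 221 and 207 in medium MYC controls and 247, 237, 254 and 211 with the inhibitor. Every medium MYC library was far above every high MYC library, a 2.73-fold difference among controls (log2 1.45, SE 0.092, adjusted p = 4.1e-12) and a 3.13-fold one with the inhibitor. Its responses to the inhibitor were -0.03 at high MYC (95% interval -0.22 to 0.17) and 0.17 at medium MYC (95% interval -0.02 to 0.36).

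**Figure D3:**
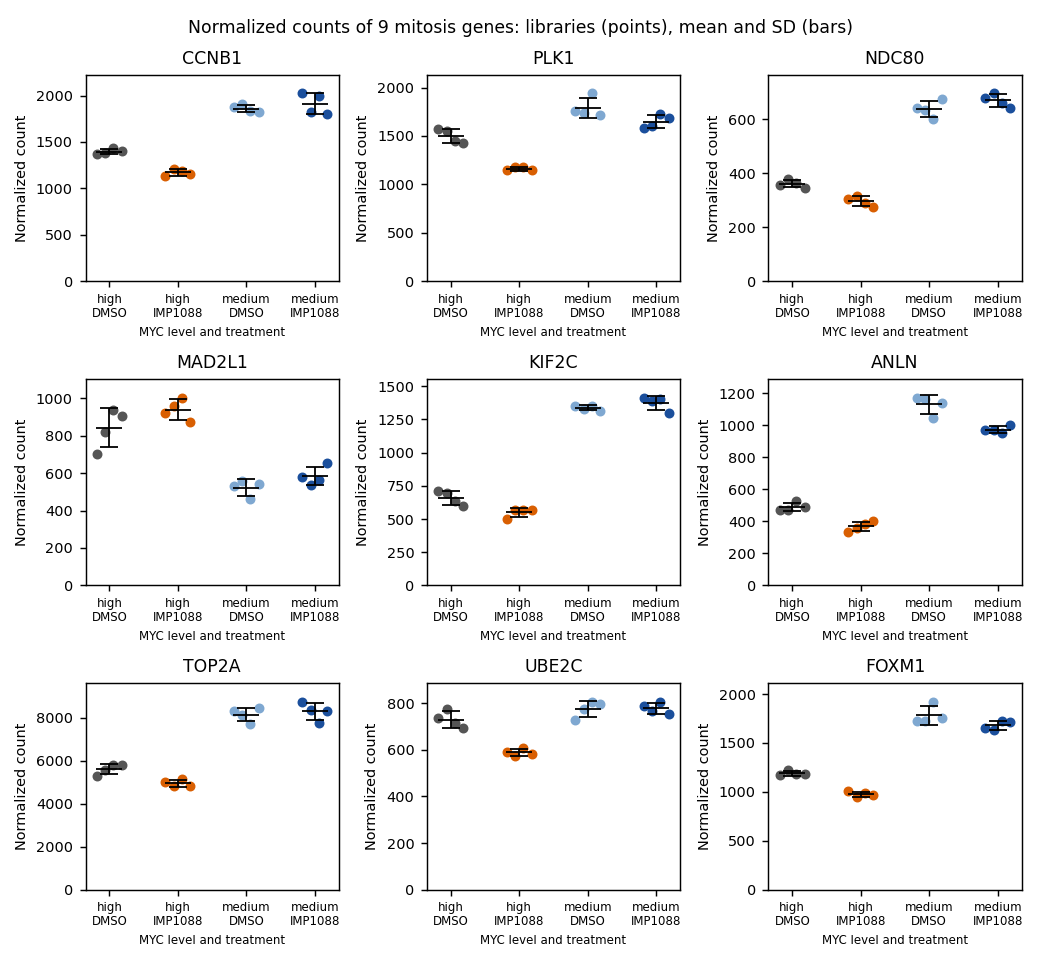
Normalized counts of 9 mitosis genes by group. Points are the 4 libraries of each group, black bars are the mean and SD, and each y axis starts at 0. In 8 of the 9 panels every high MYC library with inhibitor lies below every high MYC control, while MAD2L1 is the panel with lower counts at medium MYC.

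The 11 checkpoint and kinetochore genes were the most divided group. Among controls 7 were higher at medium MYC, 3 were lower and CENPF, a kinetochore protein, did not differ past the threshold (log2 difference -0.05, adjusted p = 0.394). With the inhibitor at high MYC 4 of the 11 fell: BUB1B, TTK, NDC80 and SPC24. The 3 genes that were lower at medium MYC, MAD2L1, BUB3 and BUB1B, encode proteins of the mitotic checkpoint complex; CDC20, a member counted below with the anaphase genes that also belongs to that complex, was higher at medium MYC (log2 difference 0.36 among controls, adjusted p = 2.29e-06). MAD2L1, which encodes MAD2 (chromosome 4, 120055608 to 120067074), read 703, 822, 937 and 905 in high MYC controls and 923, 957, 1004 and 874 with the inhibitor. At medium MYC MAD2L1 read 532, 559, 459 and 540.0 in controls and 579, 538, 562 and 651 with the inhibitor. Both medium MYC groups lay below both high MYC groups. Among controls MAD2L1 was lower at medium MYC, with a log2 difference of -0.68 (SE 0.078, adjusted p = 7.15e-08), and its responses to the inhibitor were 0.16 and 0.16 (adjusted p = 0.13 and 0.153). BUB3 (chromosome 10, 123154277 to 123170467) had counts of 1811, 1918, 2047 and 1932 in high MYC controls and 1624, 1644, 1463 and 1556 in medium MYC controls. With the inhibitor BUB3 had 1923, 1870.1, 1839.6 and 1821 at high MYC and 1675, 1600.3, 1677 and 1621 at medium MYC. The MYC levels did not overlap under either treatment, and the treatments overlapped at each level. BUB3 was lower at medium MYC, with a log2 difference of -0.29 among controls (adjusted p = 7.2e-07). BUB1B, which encodes BUBR1 (chromosome 15, 40161023 to 40221136), read 1318, 1336, 1436 and 1293 in high MYC controls and 1136, 1130.1, 1179.7 and 1106 in medium MYC controls. With the inhibitor BUB1B read 1292, 1256, 1254 and 1172 at high MYC and 1074, 1094, 1079 and 1076 at medium MYC. None of the compared groups overlapped, and the log2 difference between MYC levels among controls was -0.24 (adjusted p = 5.55e-06). BUB1B fell by 7.61% with the inhibitor at high MYC (log2 change -0.11, adjusted p = 0.0277), a call that 7 alternatives did not make.

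NDC80, NUF2, SPC24 and SPC25 form the complex that grips microtubules, and TTK is the checkpoint kinase MPS1. NDC80 (chromosome 18, 2571511 to 2616635) had the largest difference in response of the 50. It read 358, 377, 364 and 344 in high MYC controls and 305, 316, 291 and 275 with the inhibitor. At medium MYC NDC80 read 641, 635, 601 and 675 in controls and 678, 695, 661 and 641 with the inhibitor. The high MYC groups were apart and the medium MYC groups overlapped. NDC80 fell by 17.7% at high MYC (log2 change -0.28, SE 0.051, adjusted p = 0.000276), its log2 change at medium MYC was 0.07, and the difference was -0.35 (SE 0.073, adjusted p = 0.00308). NUF2 (chromosome 1, 163266576 to 163355764) read 294, 289.7, 329 and 326 in high MYC controls and 268, 269.5, 300.2 and 278 with the inhibitor. At medium MYC NUF2 read 432, 412, 385 and 429 in controls and 493, 456, 461 and 484 with the inhibitor. It was the 1 member that rose with the inhibitor: at medium MYC every treated library exceeded every control (log2 change 0.19, SE 0.058, adjusted p = 0.0179). At high MYC NUF2 had a log2 change of -0.15 (adjusted p = 0.0624), with overlapping groups, and the responses differed by -0.34 (adjusted p = 0.01). TTK (chromosome 6, 80003887 to 80042527) read 302, 329, 334 and 313 in high MYC controls and 272, 265, 277 and 298 with the inhibitor. At medium MYC TTK read 371, 387, 368 and 421 in controls and 418, 397, 416 and 462 with the inhibitor. TTK fell without overlap at high MYC (log2 change -0.20, SE 0.06, adjusted p = 0.0166), did not pass at medium MYC (log2 change 0.13), and differed between the levels by -0.33 (adjusted p = 0.0161). SPC24 and SPC25 had log2 changes of -0.20 (adjusted p = 0.0212) and -0.11 (adjusted p = 0.288) at high MYC, and neither passed for the difference between levels (adjusted p = 0.549 and 0.752). BUB1, a checkpoint kinase (chromosome 2, 110637698 to 110678114), changed little with the inhibitor. Its counts were 2531, 2535, 2653 and 2446 in high MYC controls and 2462, 2289, 2493 and 2375 with the inhibitor. At medium MYC BUB1 read 2755, 2873, 2775 and 2833 in controls and 2871, 2884, 2887 and 2835 with the inhibitor. Every medium MYC library lay above every high MYC library. The treatments overlapped at each level, with a log2 change at high MYC of -0.08 (95% interval -0.14 to -0.02, adjusted p = 0.0617), which 4 of the alternatives called.

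All 6 kinesin motors were higher at medium MYC among controls (median log2 difference 0.68) and all 6 fell with the inhibitor at high MYC (median -0.23), although the call for KIF4A was lost in 19 of the alternatives. KIF2C, a kinesin that takes microtubule ends apart (chromosome 1, 44739818 to 44767767), read 708, 694, 636 and 600.2 in high MYC controls and 502, 566, 568 and 572 with the inhibitor. At medium MYC KIF2C read 1354, 1331, 1355 and 1316 in controls and 1416, 1386, 1408 and 1301 with the inhibitor. Every medium MYC library lay far above every high MYC library. KIF2C was 2.03-fold higher at medium MYC among controls (adjusted p = 4.88e-14) and 2.5-fold higher with the inhibitor (adjusted p = 5.14e-16). It fell by 16.2% with the inhibitor at high MYC (log2 change -0.26, SE 0.051, adjusted p = 0.000655), and the responses differed by -0.30 (SE 0.072, adjusted p = 0.0105). KIF4A, a chromosome-bound kinesin (chromosome X, 70290090 to 70420832), read 450.4, 418, 454 and 462 in high MYC controls and 401, 420.4, 407 and 400.2 with the inhibitor. At medium MYC KIF4A read 899, 898, 908 and 844 in controls and 898, 962, 926 and 829.9 with the inhibitor. Treated and control libraries overlapped at both levels, and the log2 change at high MYC was -0.13 (adjusted p = 0.0456). KIF11, the motor that pushes spindle poles apart (chromosome 10, 92593286 to 92655395), read 1459, 1561, 1646 and 1532 in high MYC controls and 1430.3, 1345, 1422 and 1296 with the inhibitor. At medium MYC KIF11 read 2076, 2081, 1908 and 2108 in controls and 2174, 2005, 1896 and 2067 with the inhibitor. It was lower with the inhibitor in every high MYC library (log2 change -0.17, SE 0.046, adjusted p = 0.00724), overlapped at medium MYC (log2 change -0.01), and did not pass for the difference (-0.17, adjusted p = 0.128). Of the other motors, KIF20A fell by 18.1% at high MYC and passed for the difference (adjusted p = 0.0431), and CENPE and KIF23 fell (log2 change -0.23 and -0.23) and did not (adjusted p = 0.303 and 0.447).

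The 9 spindle and cytokinesis genes were all higher at medium MYC among controls (median log2 difference 0.59), and 5 of them fell with the inhibitor at high MYC: TPX2, NUSAP1, PRC1, ANLN and DLGAP5. ANLN, which encodes the actin-binding cleavage furrow protein anillin (chromosome 7, 36389806 to 36453791), read 469, 471, 529 and 492 in high MYC controls and 336, 357, 380.5 and 401 with the inhibitor. At medium MYC ANLN read 1173, 1163, 1047 and 1139.8 in controls and 970.5, 969.5, 950.5 and 999 with the inhibitor. The 4 groups held 4 separate ranges. ANLN fell by 24.8% at high MYC (log2 change -0.41, SE 0.054, adjusted p = 5.29e-06) and fell by 13.9% at medium MYC (log2 change -0.22, SE 0.054, adjusted p = 0.00427). The difference of -0.20 between these falls had a 95% interval of -0.35 to -0.04 and did not pass (adjusted p = 0.127). NUSAP1, which bundles spindle microtubules (chromosome 15, 41332694 to 41381050), read 1274, 1247, 1277 and 1217 in high MYC controls and 1029, 1091, 1085 and 1034 with the inhibitor. At medium MYC NUSAP1 read 1964, 1988, 2011 and 2059.8 in controls and 2133, 2065, 2108 and 2009.6 with the inhibitor. Treated NUSAP1 libraries lay below every control at high MYC and overlapped the controls at medium MYC. It fell by 15.5% at high MYC (log2 change -0.24, SE 0.032, adjusted p = 5.87e-06), and its difference in response of -0.29 had the smallest adjusted p-value of the 50 members (0.000138). DLGAP5, a spindle protein that Aurora A phosphorylates, fell by 17.4% at high MYC and also passed for the difference (-0.27, adjusted p = 0.00514). ECT2, HMMR, ASPM and CKAP2 had log2 changes of -0.01, -0.14, -0.08 and 0.01 at high MYC, with adjusted p-values from 0.0645 to 0.947.

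The 3 chromosomal passenger genes, whose products hold Aurora B at centromeres, were all higher at medium MYC among controls and all fell with the inhibitor at high MYC. BIRC5, which encodes survivin (chromosome 17, 78214186 to 78225636), read 718, 718, 738 and 719 in high MYC controls and 632, 632, 668 and 672 with the inhibitor. At medium MYC BIRC5 read 826, 811, 839 and 811 in controls and 843, 914, 842 and 819 with the inhibitor. The high MYC groups were apart, and BIRC5 fell by 9.97% (log2 change -0.15, adjusted p = 0.0058), while at medium MYC the log2 change was 0.06. The difference was -0.21 (adjusted p = 0.0197), and DESeq2 did not call it. CDCA8, which encodes borealin (chromosome 1, 37692418 to 37709719), read 648, 672, 684 and 562 in high MYC controls and 570.0, 537, 586 and 555 with the inhibitor. At medium MYC CDCA8 read 1042, 1098, 1097 and 1045 in controls and 923, 986, 926 and 894 with the inhibitor. The high MYC groups overlapped in 1 control library and the medium MYC groups did not overlap. CDCA8 fell by 12.2% at high MYC (log2 change -0.19, adjusted p = 0.00985) and fell by 12.9% at medium MYC (log2 change -0.20, adjusted p = 0.00629), with a difference of 0.01 (95% interval -0.14 to 0.17). INCENP fell at high MYC (log2 change -0.20, adjusted p = 0.00636) and not past the threshold at medium MYC (-0.07).

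The 6 condensin and chromosome structure genes were all higher at medium MYC among controls (median log2 difference 0.39). With the inhibitor at high MYC NCAPG, NCAPH and TOP2A fell, while NCAPD2, SMC2 and SMC4, which encode other condensin subunits, had log2 changes of -0.04, -0.06 and 0.04 that did not pass. Of the condensin II subunits in the second list described below, named after their values were seen, NCAPG2 fell (log2 change -0.17, adjusted p = 0.0024), and NCAPD3 and NCAPH2 had log2 changes of -0.03 and 0.01 that did not pass. TOP2A, the topoisomerase that untangles sister chromatids (chromosome 17, 40388516 to 40417950), had the highest level of the 50. It read 5309.7, 5585, 5812 and 5803 in high MYC controls and 5007, 4819, 5137 and 4809 with the inhibitor. At medium MYC TOP2A read 8311, 8111, 7735 and 8443 in controls and 8751, 8356, 7767 and 8333 with the inhibitor. Its high MYC groups were apart and its medium MYC groups overlapped. TOP2A fell by 12.1% at high MYC (log2 change -0.19, SE 0.038, adjusted p = 0.000757), with a difference between responses of -0.21 (adjusted p = 0.0128). NCAPG, a condensin I subunit (chromosome 4, 17810902 to 17844862), read 1076, 1057, 1136 and 1032 in high MYC controls and 913, 1029, 946 and 883 with the inhibitor. At medium MYC NCAPG read 1677, 1642, 1577 and 1631 in controls and 1663, 1591, 1499.8 and 1643 with the inhibitor. NCAPG fell without overlap at high MYC (log2 change -0.19, SE 0.045, adjusted p = 0.00293), and its difference between levels did not pass (-0.16, 95% interval -0.29 to -0.03, adjusted p = 0.136).

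All 5 genes of the anaphase-promoting complex pathway fell with the inhibitor at high MYC (median log2 change -0.22). UBE2C, the ubiquitin-conjugating enzyme of the complex (chromosome 20, 45812576 to 45816957), read 734, 776, 716 and 693 in high MYC controls and 593, 575, 608 and 581 with the inhibitor. At medium MYC UBE2C read 729, 773, 803 and 796 in controls and 788, 765, 806 and 754 with the inhibitor. The 4 high MYC libraries with inhibitor were below all 12 others, which overlapped one another. UBE2C fell by 19.2% at high MYC (log2 change -0.31, SE 0.043, adjusted p = 1.27e-05), its log2 change at medium MYC was 0.01, and the difference was -0.31 (SE 0.061, adjusted p = 0.00165). CDCA3, an F-box-like protein of mitotic entry (chromosome 12, 6844793 to 6852066), had the largest fall of the 50 at both levels. Its counts were 337, 326, 305 and 312 in high MYC controls and 216, 216, 244 and 226 with the inhibitor. At medium MYC CDCA3 had 655, 604, 622 and 643 in controls and 537, 541, 562 and 488 with the inhibitor. The 4 groups did not overlap. CDCA3 fell by 29.4% at high MYC (log2 change -0.50, SE 0.056, adjusted p = 6.16e-07) and fell by 15.7% at medium MYC (log2 change -0.25, SE 0.056, adjusted p = 0.00194), and the difference of -0.26 (adjusted p = 0.0473) was not called in 19 alternatives. CDC20, the activator that the checkpoint restrains (chromosome 1, 43358955 to 43363203), read 868, 857, 966 and 856 in high MYC controls and 745, 748, 804 and 813 with the inhibitor. At medium MYC CDC20 read 1055, 1119.8, 1254 and 1124 in controls and 1107, 1132, 1227 and 1131 with the inhibitor. It fell at high MYC without overlap (log2 change -0.19, SE 0.052, adjusted p = 0.00977) and did not pass for the difference (-0.20, adjusted p = 0.0967). ESPL1, the protease separase that cuts cohesin, fell at both levels (-0.22 and -0.19, adjusted p = 0.000469 and 0.00145), and PTTG1, its inhibitor securin, fell at high MYC (-0.20, adjusted p = 0.0107) with a log2 change of -0.03 at medium MYC.

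The difference between the 2 responses was itself tested for every gene. It was past the threshold for 19 of 50 members, all with a lower value at high MYC, against 5.33% of all genes tested in that direction and 3.31% in the other. No member passed in the other direction, and none had an unadjusted p under 0.05 in it; edgeR called 19 lower and DESeq2 14 lower, again with none higher. The 19 comprised 6 of 9 cyclins and entry kinases, 3 of 11 checkpoint and kinetochore genes, 2 of 6 kinesins, 2 of 9 spindle genes, 1 of 3 passenger genes, 2 of 6 condensin and chromosome genes, 2 of 5 anaphase genes and FOXM1. By value alone, 46 of 50 differences were negative, with a median of -0.18 (all genes -0.02). This contrast uses all 16 libraries and equals, with its sign turned, how much wider the gap between MYC levels was with the inhibitor than among controls, so the 2 readings are 1 measurement. Members with a called fall at both levels were CCNF, PLK1, AURKB, ANLN, CDCA8, ESPL1 and CDCA3. A further 27 fell at high MYC and were not called at medium MYC. For 15 members no response was called at either level: CDK1, CDC25C, BUB1, BUB3, MAD2L1, CENPA, CENPF, SPC25, ECT2, HMMR, ASPM, CKAP2, NCAPD2, SMC2 and SMC4. The shares of all genes tested in these joint classes were not counted, so the classes only describe the members. Across the 50 genes the response at high MYC and that at medium MYC, which share no library, had Pearson's r of 0.591 and Spearman's rho of 0.512, given as a description of 50 genes that are not independent replicates.

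**Figure D4:**
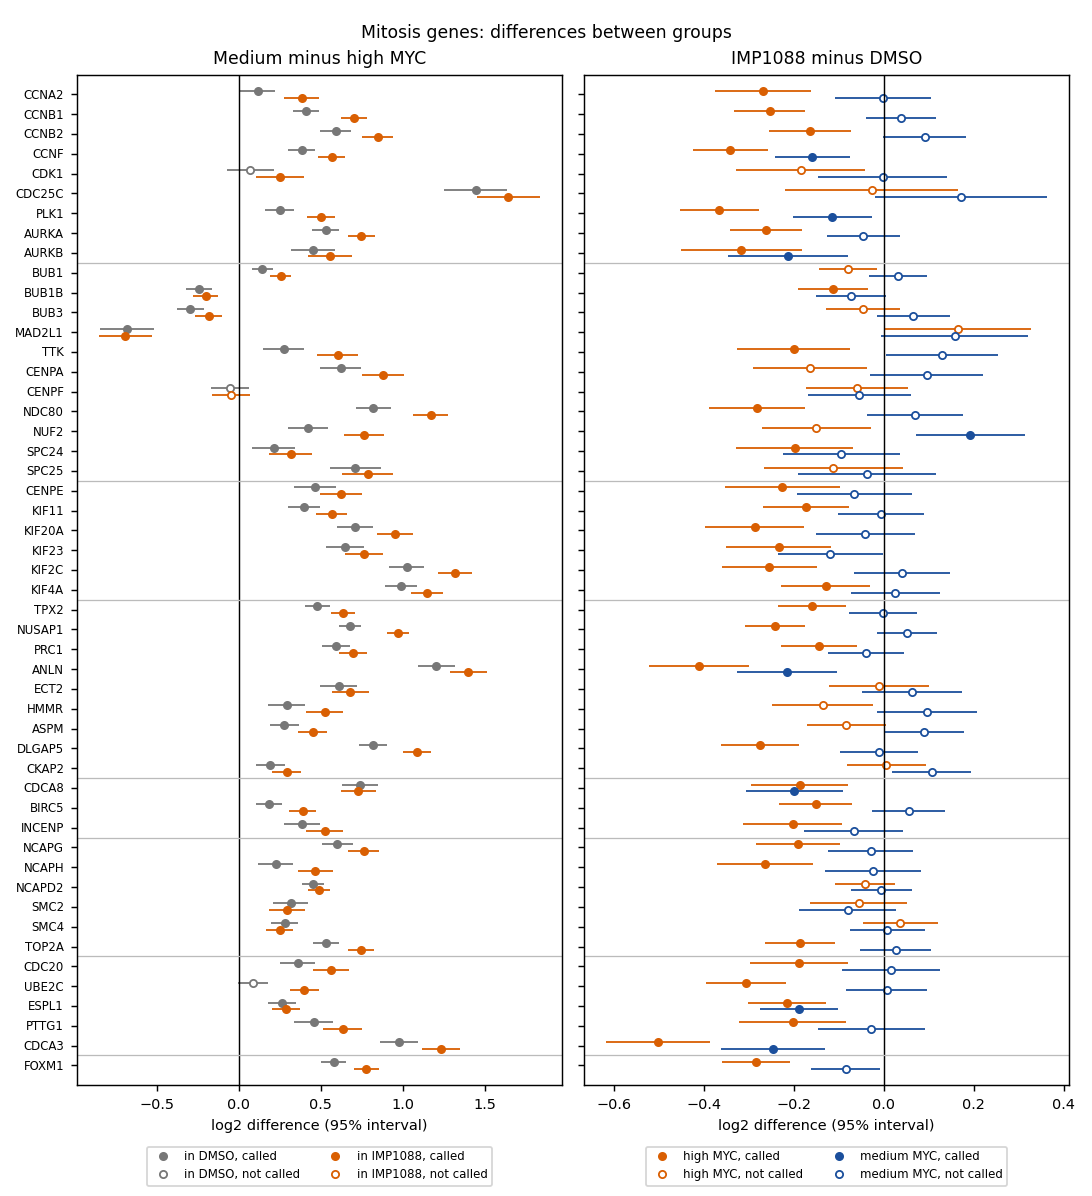
Log2 differences of the 50 mitosis genes with 95% intervals. Left, medium minus high MYC in DMSO (grey) and in IMP1088 (orange); right, IMP1088 minus DMSO at high MYC (orange) and at medium MYC (blue); filled points passed an adjusted p of 0.05 and open points did not, and lines part the role groups. On the right 34 orange points and 8 blue points are filled, and all of the filled points but that of NUF2 lie below 0.

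Most changes were below 2-fold. Among controls 3 members, CDC25C, KIF2C and ANLN, differed by 2-fold or more between MYC levels, and with the inhibitor 7 did, these 3 with NDC80, KIF4A, DLGAP5 and CDCA3. The share of all genes tested that differed by 2-fold or more was not counted, so these counts only describe the members. The replicate spread was smaller still: the median coefficient of variation of the 50 genes was 4.78% in high MYC controls, 4.20% with the inhibitor, 4.36% in medium MYC controls and 4.47% with the inhibitor. The values of treated and control libraries did not overlap for 32 of 50 members at high MYC and for 9 of 50 at medium MYC, beside 26.7% and 27.9% of all genes tested, counted the same way in either direction. The 32 were all lower with the inhibitor (15.8% of all genes were lower without overlap, and 10.9% higher); of the 9 at medium MYC 7 were lower and 2 higher (15.4% and 12.4% of all genes).

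Per length, the normalized count per kilobase of exon over all libraries had a median of 266 for the 50 genes. It ran from 44.9 for CDC25C to 1049 for TOP2A, with TPX2 (663), CCNB1 (619.5) and SMC4 (615) next below TOP2A, and CDCA3 (75.6) and TTK (76.9) next above CDC25C. The smallest number of reads behind any value was 62, for CDC25C, and the largest 10288, for TOP2A. Exons of 19 members overlap those of a gene on the opposite strand in GENCODE release 29, among the genes described above CCNF, CDC25C, PLK1, MAD2L1, NUF2, KIF2C, KIF4A, ANLN, NCAPG, CDCA3 and FOXM1, and exons of BUB1B, CENPA, NUSAP1 and PRC1 overlap those of a gene on the same strand. Whether counting used the strand is not given in the sources used here, so the values of these 22 genes may hold reads of a neighbour. A further uncertainty concerns 11 members with named pseudogene copies, among them AURKA, BUB1, BUB3, NCAPG, CDC20 and UBE2C, whose reads could have been split between copies.

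A second list of 101 other mitosis genes, with the same kinds of roles and no member in common, was counted beside the first; it too was chosen with earlier results known. Among controls 67 were higher and 21 lower at medium MYC (median log2 difference 0.30), and with the inhibitor at high MYC 39 fell and 1 rose (median -0.11). The shares called among controls, 66.3% higher and 20.8% lower, stood beside 38.9% and 37.3% of all genes, and the 38.6% that fell at high MYC beside 16.3%. At medium MYC 15 fell and 5 rose (median -0.04); the share that fell, 14.9%, was near the 14.6% of all genes, and the share that rose, 4.95%, was below 11.7%. For the difference 7 were lower at high MYC (median -0.08), a share of 6.93% that was near the 5.33% of all genes. The largest increases at medium MYC were of LIN52, a subunit of the MuvB complex, from 88.7 ± 9.46 to 315 ± 25.3 among controls (SD, n = 4; log2 difference 1.82, adjusted p = 5.09e-14), of PSRC1, a microtubule-binding protein, from 62.1 ± 11.0 to 174 ± 13.2 (log2 1.49), and of the kinesin KIFC1, from 560.3 ± 29.3 to 1298 ± 68.0 (log2 1.21). The largest decreases were of the anaphase-promoting complex subunits ANAPC5 (log2 -0.85, adjusted p = 2.76e-16) and ANAPC1 (log2 -0.75) and of CDC25A, a phosphatase of the G1 to S transition (log2 -0.58). With the inhibitor PSRC1, the kinetochore gene CENPI, KIFC1 and the kinesin KIF18B fell at both levels, with log2 changes of -0.47, -0.47, -0.41 and -0.38 at high MYC and -0.38, -0.37, -0.26 and -0.31 at medium MYC; the call for PSRC1 at medium MYC was lost in 8 alternatives. HASPIN, the kinase that marks centromeric histone H3, was the 1 gene of the list that rose at high MYC, from 444 ± 49.2 to 527 ± 21.3 (SD, n = 4; log2 change 0.25, adjusted p = 0.00243), and it rose at medium MYC too (log2 change 0.21, adjusted p = 0.0101); its exons overlap those of ITGAE on the opposite strand, and its high MYC groups overlapped in 1 control library. RACGAP1, the partner of KIF23 in the central spindle, had log2 changes of -0.19 at high MYC and 0.05 at medium MYC and a difference of -0.24 (adjusted p = 0.0108).

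For 35 DNA replication genes, which belong to the preceding phase of the cycle, the median difference between MYC levels and the median response at high MYC had the same signs as those of the mitosis genes and were smaller. Among controls 23 were higher and 6 lower at medium MYC (median log2 difference 0.16). These shares, 65.7% and 17.1%, stood beside 38.9% and 37.3% of all genes. With the inhibitor at high MYC 16 fell (median -0.11), or 45.7% beside 16.3% of all genes. At medium MYC 10 fell and 2 rose (median -0.07), or 28.6% and 5.71% beside 14.6% and 11.7% of all genes. There the median of the replication genes was lower than that of the 50 mitosis genes (-0.0044). The difference was lower at high MYC for 5 of 35 (median -0.07), or 14.3% beside 5.33% of all genes, compared with 19 of 50 mitosis genes. Whether the lists differ was not tested.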

How the data were processed

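The deposited table holds 58051 Ensembl identifiers by 16 libraries of normalized counts, an expression signal the authors scaled per library. RSEM 1.2.31, STAR 2.5.2a, DESeq2 1.16.1 and the build GRCh38 are named per the submitters' processing notes, without their roles; the annotation and use of strand are not given in the sources used here. Values were whole multiples of 1 step per library (tolerance 1e-06), so counts, called reads here, were recovered. Whether these counts are rounded estimates is not given in the sources used here. The steps matched median-of-ratios factors within 3.11e-13%. RNA came from a miRNeasy kit, cDNA from a Nugen kit and reads from an Illumina HiSeq, per the labels' protocols.

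Here limma 3.58.1 (R 4.3.3) was fitted to log2(value + 1) for the 13765 genes averaging 10 or more, with 4 group means over 16 libraries, a mean trend and Benjamini-Hochberg adjustment over all genes tested (two-sided, called under 0.05). Fold changes are on that scale, which understates those of low genes. Only rows of the 50 members and of comparison lists are printed. Count tests on the recovered reads (edgeR 4.0.16, DESeq2 1.42.0), other scalings, pseudocounts, filters, blocks and fits that left out 1 library made 30 alternatives, of which the GC corrections were added after seeing the data. The fit was also run on simulated counts with a common dispersion for all genes and no difference between MYC levels. That setting is unlike these data, so the run does not measure the error of the calls here.

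The members and lists were chosen with earlier results of these data known. Members given with values per library are up to 4 called higher and 4 lower with the largest log2 change in each comparison, the member of each role group with the smallest p-value for the difference in response, and 12 fixed genes (CCNB1, CDK1, PLK1, AURKA, AURKB, BUB1, NDC80, KIF11, TOP2A, NCAPG, CDC20, FOXM1). Other mitosis genes were named by the largest called changes. Positions are from GENCODE release 29 on GRCh38, and promoter sequences from RefSeq. Replicates correlated at r from 0.985 to 0.991 over genes, and none was as similar as sampling noise gives (chi-square divided by its degrees of freedom, 1.72 to 10.7).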

Additional observations from a re-analysis of the deposited data

Results flagged for a closer look

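Among 112 groups of 4 libraries checked for the named members and the median over members, 10 held a library whose gap to the nearest other one was a larger share of the group's range than Dixon's 95% critical value; chance gives about 1 in 20. In high MYC controls replicate 3 was above the rest for CDC25C (81.7, nearest 75.3), BIRC5 (738, nearest 719) and CDC20 (966, nearest 868). In medium MYC controls replicate 3 was below the rest for CDK1 (961, nearest 1147) and KIF11 (1908, nearest 2076), and replicate 4 for KIF4A (844, nearest 898). With the inhibitor, KIF2C was low in high MYC replicate 1 (502, nearest 566) and AURKA high in medium MYC replicate 3 (1189, nearest 1132). The median over the 50 members was high in high MYC inhibitor replicate 3 (-0.30, nearest -0.37) and in medium MYC inhibitor replicate 1 (0.28, nearest 0.24).

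The test of the difference in response between MYC levels (limma, Benjamini-Hochberg) passed for 14 of the 27 named members. Some members were named because of this same test, so the count of 14 is not a separate result. Among all 50 members it passed for 19, all lower at high MYC. Of all genes tested 5.33% passed in that direction and 3.31% in the other. In the order of their log2 differences (high minus medium MYC) the 14 were NDC80 (-0.35), NUF2 (-0.34), TTK (-0.33), UBE2C (-0.31), KIF2C (-0.30), NUSAP1 (-0.29), CCNB1 (-0.29), CDCA3 (-0.26), PLK1 (-0.25), AURKA (-0.22), TOP2A (-0.21), BIRC5 (-0.21), FOXM1 (-0.20) and CCNF (-0.18). Adjusted p-values ran from 0.000138 for NUSAP1 to 0.0493 for CCNF.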

How the results depend on the processing

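Over the 30 alternatives no called change of a member changed direction; the median response of the 50 at medium MYC, which lay next to 0, did. The number called for medium against high MYC was 46 to 48 among controls and 49 with the inhibitor throughout. The number called with the inhibitor at high MYC was 34 and ranged from 29 (quantile normalization) to 40, and from 32 to 36 when 1 library was left out. At medium MYC it was 8 and ranged from 7 to 12, and from 5 to 9 when 1 library was left out, with 5 reached without medium MYC control replicate 3. For the difference in response it was 19 and ranged from 14 (DESeq2) to 24, and from 14 to 20 when 1 library was left out. The median log2 change at high MYC was -0.15 under quantile normalization; that at medium MYC, -0.0044, was 0.028 under quantile normalization, 0.024 with equal library totals, 0.0051 with edgeR, 0.0013 without medium MYC control replicate 4 and -0.037 under the GC correction, with or without the replicate block. The causes were not tested.

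Calls near the threshold moved: the difference in response lost its call for CDCA3 in 19 alternatives, for CCNF in 18, for SKA1 in 21 and for CDCA2 in 17, and that for TOP2A in 2 (quantile normalization, no mean trend). PLK1 lost its call at medium MYC in 22, KIF4A at high MYC in 19, BUB1B in 7 and TTK in 3. AURKB and NUF2 at medium MYC each lost theirs in 2. Calls were also gained, among others that of the difference in response for CDC20 in 3, for KIF11 and CDK1 in 2 each and for NCAPG in 1. With the inhibitor, CDK1 gained a call at high MYC in 8, NUF2 in 5 and BUB1 in 4, and BUB1B gained one at medium MYC in 2. Replicate numbers did not pair the libraries: 1 of 24 same-numbered pairs had a residual correlation above 0.1 (range -0.154 to 0.239), and 3 of 16 libraries correlated best with their own number. With the replicate block the counts were 46, 49, 33, 7 and 16 in the order above. No scaling moved the median of all genes by over 0.1. The lowest count of reads behind a member's value was 62.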
